A study of Mus musculus with 9 samples.

Results

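Mouse embryonic stem cells (ESCs) express 3 E protein genes, Tcf3, Tcf12 and Tcf4, and their transcript levels were followed after induction of a forced E2A homodimer. These genes were taken by name from 47729 genes with FPKM values (fragment counts scaled for exon length and library depth), and all 3 were among the 17951 genes tested, those with a mean of at least 0.1 FPKM. The ESC line carries a doxycycline (dox)-inducible transgene in which a FLAG-tagged mouse E47 sequence is joined through a flexible linker to another E47 sequence, placed by cassette exchange upstream of Hprt. Cells of all groups carried this transgene and were kept in LIF/serum. The 0 h group received no dox, and the other groups were taken 18 h and 24 h after dox was added, with 3 replicates at each time, which makes 9 libraries. The treatment text in the sample labels names other times, 24 h and 48 h, while the sample titles and treatment entries give 18 h and 24 h, which were used. Dox-treated cells without the transgene were not analysed here, so an effect of dox itself cannot be told apart from one of the transgene. The series also has no libraries of untreated cells at 18 h or 24 h. A change with time in culture therefore cannot be told apart from an effect of dox or of the transgene.

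E proteins are the class I basic helix-loop-helix (bHLH) transcription factors. They bind the E-box motif as homodimers or together with tissue-restricted class II bHLH proteins, and the Id proteins, which lack a basic region, hold them in dimers that do not bind DNA. Tcf3 encodes E2A, whose alternative bHLH exons give E12 and E47, Tcf12 encodes HEB, and Tcf4 encodes E2-2. E2A is best known from B lymphocyte development, HEB from T lymphocyte and muscle development, and E2-2 from plasmacytoid dendritic cells. The symbols Tcf3 and Tcf4 have also been used for the HMG-box genes Tcf7l1 and Tcf7l2, which are unrelated Wnt pathway factors and are treated separately here.

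In the GRCm38 annotation Tcf3 (ENSMUSG00000020167) lies on the minus strand of chromosome 10 between 80409514 and 80433647 and has 14 annotated transcripts. Tcf12 (ENSMUSG00000032228) lies on the minus strand of chromosome 9 between 71842688 and 72111871 and has 21. No other annotated gene overlapped an exon of these genes or of Tcf4. The introns of Tcf12 hold Rpl15-ps2, a ribosomal protein pseudogene on the opposite strand with a mean of 63.2 FPKM, and it covers 0 bases of Tcf12 exons.

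The transgene encodes E47, so its reads fall on Tcf3, and a reader needs to see how far the E47 coding sequence resembles that of the other members. The most alike part of the E47 and HEB coding sequences is the bHLH region. A stretch of 150 bases from it is shown for both alternative Tcf3 exons and for Tcf12, each within 1 coding exon, with the bases that are the same in all 3 lines in capitals.
Tcf3 E47 exon, chr10:80410423-80410572, minus strand: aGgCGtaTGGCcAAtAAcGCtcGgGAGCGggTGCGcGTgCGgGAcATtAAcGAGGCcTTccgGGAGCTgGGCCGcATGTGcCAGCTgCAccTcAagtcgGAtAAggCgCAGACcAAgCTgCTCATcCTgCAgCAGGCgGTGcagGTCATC
Tcf3 E12 exon, chr10:80412852-80413001, minus strand: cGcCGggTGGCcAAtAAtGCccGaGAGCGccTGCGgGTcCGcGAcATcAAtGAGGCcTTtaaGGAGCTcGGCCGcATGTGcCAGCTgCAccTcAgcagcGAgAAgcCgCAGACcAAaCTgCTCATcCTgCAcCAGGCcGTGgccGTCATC
Tcf12, chr9:71856330-71856479, minus strand: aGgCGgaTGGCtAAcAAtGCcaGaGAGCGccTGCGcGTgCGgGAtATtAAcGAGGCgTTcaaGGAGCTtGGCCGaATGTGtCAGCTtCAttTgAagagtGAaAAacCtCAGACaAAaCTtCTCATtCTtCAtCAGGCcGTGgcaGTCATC
Of these 150 bases, 102 were the same in all 3 lines. The E47 exon matched Tcf12 at 113 bases (75.3%), the E12 exon matched Tcf12 at 117 (78%), and the E47 and E12 exons of Tcf3 matched each other at 119 (79.3%). The differences are scattered, so that no identical run between the E47 exon and Tcf12 in this stretch exceeded 13 bases. Over all annotated transcripts the longest identical run between Tcf3 and Tcf12 was 18 bases, found in 11 of the 14 Tcf3 transcripts and 9 of the 21 Tcf12 transcripts, a short way downstream of the stretch shown.
Run shared by Tcf3 and Tcf12: aaccccaaagcagcctgc
The longest run shared by Tcf3 and Tcf4 was 23 bases, and neither gene shared a run of 25 bases with Tcf3. The read length and the handling of reads with several alignments are not given in the sources used here.

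Tcf3 was the most abundant member at 0 h and was 2.81-fold higher after 18 h of dox. Its levels were 41.2, 37.7 and 38.5 FPKM in replicates 1, 2 and 3 at 0 h, then 116, 107 and 107 FPKM at 18 h, and 104, 93.6 and 108 FPKM at 24 h. Every dox-treated library lay well above every 0 h library, and the 18 h and 24 h libraries overlapped. These levels rest on between 3383 and 3967 reads per library at 0 h and between 9650 and 11918 after dox. The log2 fold-change was 1.49 ± 0.07 (s.e., n=3 per time) at 18 h (limma, adjusted p = 2.37e-05) and 1.38 ± 0.07 at 24 h (adjusted p = 3.11e-05). In comparison, 1.33% of the 17951 genes tested were called higher at 18 h and 2.07% at 24 h (adjusted p of at most 0.05 and at least 2-fold), and 0.724% and 0.836% were called lower. Reads of the endogenous gene and of the transgene cannot be told apart in these values, so they do not give the response of endogenous Tcf3. Each transgene transcript also carries 2 E47 coding sequences.

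Tcf12, the gene of HEB, rose after dox, by an amount well below 2-fold. Its levels were 2.83, 3.32 and 3.46 FPKM in replicates 1, 2 and 3 at 0 h, 3.83, 4.68 and 4.60 FPKM at 18 h, and 4.45, 5.44 and 4.68 FPKM at 24 h. All 3 libraries of each later time exceeded all 3 libraries at 0 h, as was the case for 14.4% of genes tested at 18 h and 16.7% at 24 h, and replicate 1 was the lowest library at each time. The group levels were 3.20 ± 0.33, 4.37 ± 0.47 and 4.86 ± 0.52 FPKM (mean±s.d., n=3), and each library held between 1048 and 2155 Tcf12 reads. Tcf12 differed at 24 h by 0.59 ± 0.12 (s.e.) on the log2 scale, a 1.50-fold difference with a 95% interval of 1.24 to 1.81 (limma, adjusted p = 0.0175). At an adjusted p of at most 0.05 with no minimum fold, 6.52% of genes tested were higher at 24 h and 4.27% at 18 h, while 5.11% and 3.72% were lower.

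At 18 h the adjusted p of Tcf12 lay on either side of the threshold, depending on the fit. The log2 fold-change was 0.44 ± 0.12, a 1.35-fold difference with a 95% interval of 1.12 to 1.63, and its adjusted p was 0.0581 in limma without a replicate block. Deviations of libraries that share a replicate number were positively correlated across genes, and with the replicate number as a block the adjusted p was 0.00748 at 18 h and 0.00220 at 24 h. With the block, 10.8% of genes tested were higher at 18 h and 13.6% at 24 h on the same rule. Within replicate numbers the 18 h to 0 h ratios of Tcf12 were close to each other, at 1.35, 1.41 and 1.33, and the 24 h to 0 h ratios were 1.57, 1.64 and 1.35. The 24 h call without the block did not survive the loss of certain libraries, since the adjusted p was 0.0588 without 0 h replicate 1, 0.0689 without 24 h replicate 2 and 0.0545 without 24 h replicate 3.

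Tcf4, the gene of E2-2, was the least abundant member in FPKM, and its differences from 0 h did not pass in the main limma fit, which has no replicate block. The gene (ENSMUSG00000053477) lies on the plus strand of chromosome 18 between 69343356 and 69689079 and has 62 annotated transcripts. Its levels were 1.57, 1.83 and 1.51 FPKM in replicates 1, 2 and 3 at 0 h, 1.83, 2.27 and 2.06 FPKM at 18 h, and 2.13, 2.31 and 2.22 FPKM at 24 h. At 18 h replicate 1 lay just under the highest 0 h library, whereas at 24 h all 3 libraries lay above all of those at 0 h. The latter was the case for 16.7% of genes tested. The group levels were 1.64 ± 0.17, 2.06 ± 0.22 and 2.22 ± 0.09 FPKM (mean±s.d., n=3), from between 898 and 1657 reads per library. The log2 fold-change was 0.31 ± 0.12 (s.e.) at 18 h (limma, adjusted p = 0.152) and 0.42 ± 0.12 at 24 h (adjusted p = 0.0553). In linear terms these were 1.24-fold with a 95% interval of 1.02 to 1.50 and 1.34-fold with an interval of 1.11 to 1.62. With the replicate block Tcf4 passed at both times, with an adjusted p of 0.0456 at 18 h and 0.0142 at 24 h. On that rule 10.8% and 13.6% of genes tested were higher. Tcf4 also passed at both times without the block in tests on read numbers. These gave an adjusted p of 0.0479 and 0.0108 in edgeR, and of 0.0296 and 0.00185 in DESeq2. At the adjusted p alone, 1110 of 19210 genes were higher at 18 h and 1525 at 24 h in edgeR. The numbers in DESeq2 were 1298 and 1685. The ratios within replicate numbers were 1.17, 1.24 and 1.37 at 18 h and 1.36, 1.26 and 1.47 at 24 h.

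**Figure D1:**
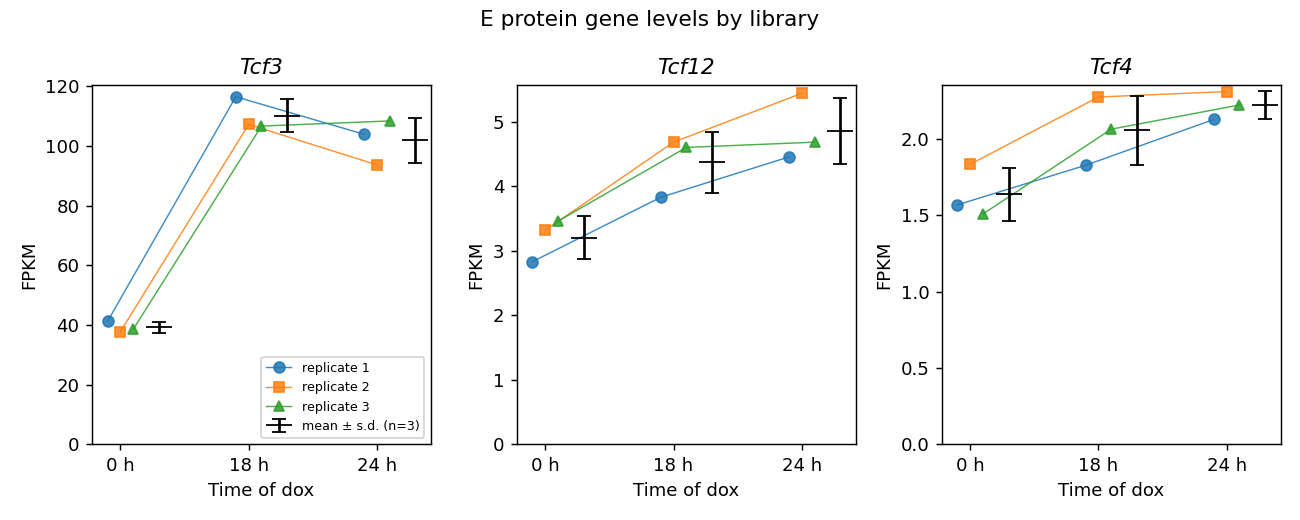
FPKM (linear axes from 0) of Tcf3, Tcf12 and Tcf4 at 0, 18 and 24 h of dox, with 1 marker shape per replicate number, thin lines joining libraries of the same number, and black bars for mean±s.d. (n=3). Tcf3 went from 39.1 to 110 and 102 FPKM on average, and Tcf12 and Tcf4 moved within much lower and narrower ranges, with replicate 2 of Tcf4 the highest at each time.

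Between 18 h and 24 h no member passed the test. The log2 fold-change from 18 h to 24 h was −0.11 for Tcf3 with a 95% interval of −0.27 to 0.04, 0.15 for Tcf12 with an interval of −0.12 to 0.42, and 0.11 for Tcf4 with an interval of −0.16 to 0.39 (adjusted p = 0.955, 0.970 and 0.970). Across all genes tested only 0.0167% were called higher at 24 h than at 18 h. The direction within replicate numbers was mixed for Tcf3, whose 24 h to 18 h ratios were 0.892, 0.874 and 1.02, while those of Tcf12 were 1.16, 1.16 and 1.02 and those of Tcf4 were 1.16, 1.02 and 1.08.

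**Figure D2:**
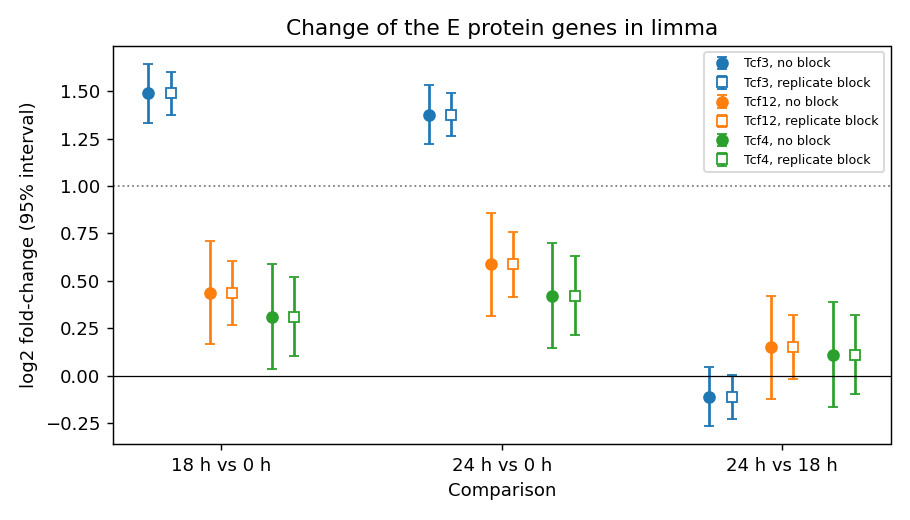
Log2 fold-change of each member in the 3 comparisons with its 95% interval in limma, without a replicate block (filled circles) and with the replicate number as a block (open squares), where the dotted line marks a 2-fold difference. Tcf3 alone lies above the dotted line, at 1.49 and 1.38, and the intervals of Tcf12 and Tcf4 lie above 0 at both times against 0 h and include 0 between 18 h and 24 h.

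Compared with all genes tested, Tcf12 and Tcf4 stood in the upper part of the distribution of log2 fold-changes but not at its end. At 24 h Tcf12 was higher than 91.0% of genes and Tcf4 higher than 86.0%, and at 18 h these shares were 88.6% and 83.1%. The median gene did not move, with a log2 fold-change of 0.00 at both times. At 0 h only 8.97% of genes tested had a level as high as that of Tcf3, compared with 49.4% for Tcf12 and 59.5% for Tcf4.

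The order of the levels in FPKM was Tcf3, Tcf12 and Tcf4 in each of the 9 libraries, and an order per length depends on the length used. The ratio of Tcf12 to Tcf4 in FPKM was 1.80, 1.81 and 2.29 in the 0 h libraries, 2.09, 2.06 and 2.23 in those of 18 h, and 2.09, 2.35 and 2.11 in those of 24 h. The ranges overlapped at all times, and the mean ratio differed from that at 0 h by 0.16 at 18 h (exact permutation test, two-sided p = 0.4) and by 0.22 at 24 h (p = 0.3). Leaving out 1 library gave differences from 0.076 to 0.32 at 18 h and from 0.13 to 0.38 at 24 h. With 3 libraries against 3 such a test cannot give a p below 0.1. Whether the responses of Tcf12 and Tcf4 differ was therefore not settled by this test.

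The gap in level between Tcf3 and the other members depends on the length by which reads are divided. The FPKM values match division by all annotated exons of a gene, which add up to 4039 bases for Tcf3, 15529 for Tcf12 and 27382 for Tcf4. The longest coding transcripts are shorter by unequal factors, at 2950, 6299 and 8577 bases. Tcf4 and Tcf12 together made up 11.03 ± 1.23% of the summed E protein FPKM at 0 h, and this share was 5.54 ± 0.79% at 18 h and 6.53 ± 0.96% at 24 h. With the longest coding transcript as the length, which was chosen after the data were seen, their share was 19.7 ± 2.0%, 10.3 ± 1.4% and 12.1 ± 1.6%. On either scale the share at 0 h exceeded that in every later library. In FPKM the mean share fell by 5.49 percentage points at 18 h and fell by 4.50 at 24 h (exact permutation test, p = 0.1 for both, the smallest possible). The share was lower after dox although the summed level of Tcf4 and Tcf12 was higher, because the Tcf3 level in the denominator, transgene reads included, increased by more. That summed level was 4.84 ± 0.39, 6.42 ± 0.68 and 7.08 ± 0.60 FPKM at the 3 times.

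The genes of the E protein inhibitors had larger log2 fold-changes than Tcf12 and Tcf4. All 4 Id genes were called higher at both times (1.33% of all genes tested at 18 h and 2.07% at 24 h), with a median log2 fold-change of 2.35 at 18 h and 2.47 at 24 h beside 0.00 over all genes tested. Id3 went from between 11.6 and 18.8 FPKM at 0 h to between 241 and 284 FPKM at 24 h, which is 4.21 ± 0.17 (s.e.) on the log2 scale (adjusted p = 8.82e-06). Id1 showed 2.62 ± 0.19, Id2 1.95 ± 0.17 and Id4 2.32 ± 0.23 in the same comparison (adjusted p = 0.000159, 0.000343 and 0.000793). Id4 was the least abundant, at 1.02 FPKM on average at 0 h and 5.27 FPKM at 24 h.

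Set against the E proteins, the summed Id level rose relative to Tcf4 and Tcf12 and also relative to all 3 members. The ratio of Id1 to Id4 over Tcf4 and Tcf12 was 19.4, 23.0 and 13.2 in the 0 h libraries, 107, 82.7 and 92.5 at 18 h, and 91.7, 76.2 and 97.0 at 24 h. Over all 3 E protein genes, transgene reads included, the ratio was 1.87, 2.76 and 1.51 in the 0 h libraries, 4.96, 5.04 and 5.44 in those of 18 h, and 5.46, 5.82 and 5.81 in those of 24 h. Neither ratio at 18 h or 24 h overlapped with that at 0 h, and the exact permutation test against 0 h gave p = 0.1 for each, the smallest it allows. The ratios also depend on the length used. At 0 h the mean ratio over Tcf4 and Tcf12 was 18.5 in FPKM and 6.15 per length of the longest coding transcript. Over all 3 genes it was 2.04 and 1.22. These are ratios of transcript levels per length and not of proteins.

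**Figure D3:**
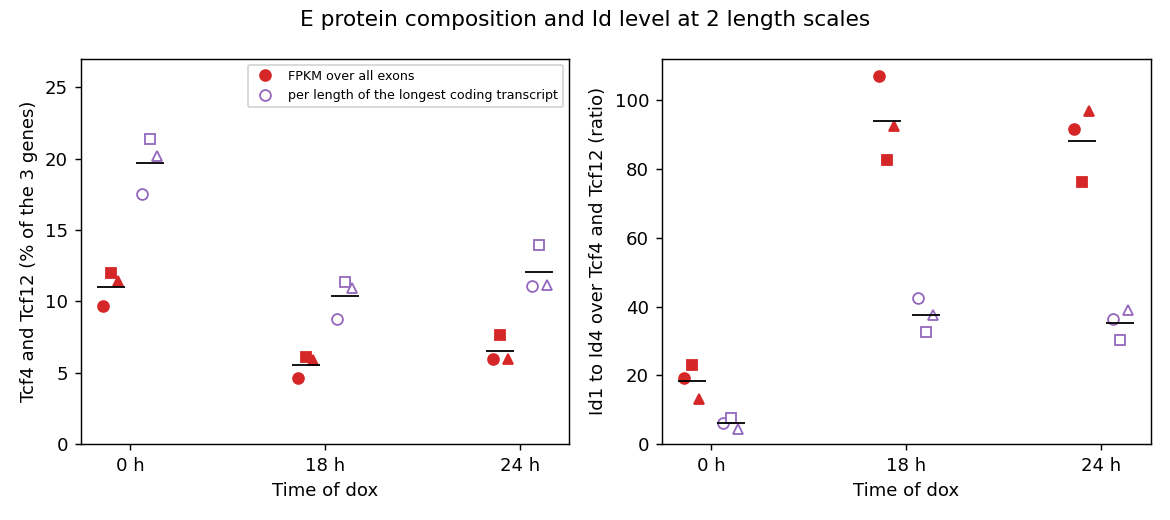
Share of Tcf4 and Tcf12 in the summed level of the 3 E protein genes in percent (left) and the summed Id1 to Id4 level divided by that of Tcf4 and Tcf12 (right) in each library, per length of all exons (filled) and per length of the longest coding transcript (open), with marker shapes for replicate numbers and bars for means. The share was lower and the ratio higher in every library after dox on both length scales, while the values themselves depended on the length chosen, for example 11.03% against 19.7% at 0 h.

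Class II bHLH genes, whose products pair with E proteins, were mostly at or near 0. Of 15 neural genes, 8 were tested and 1 reached 1 FPKM at 0 h, and 1 was called higher at 18 h and 3 at 24 h, with none lower. Over all genes tested these shares were 1.33% and 2.07%. Neurog3, a proneural factor also needed for endocrine pancreas, went from between 0.163 and 0.433 FPKM at 0 h to between 2.01 and 2.99 FPKM at 24 h, which is 2.78 ± 0.26 (s.e.) on the log2 scale (adjusted p = 0.000605). Neurod4 and Nhlh1 were also called at 24 h, with log2 fold-changes of 2.75 ± 0.47 and 1.19 ± 0.30 (adjusted p = 0.0083 and 0.0378), from means of 0.0483 and 0.0464 FPKM at 0 h. Both lay below the 0.1 FPKM filter at 0 h and were tested only because of their later levels. Their calls, and their part in the count of 3, therefore depend on that rise. The highest at 0 h, Neurod1, was at 2.06 ± 0.52 FPKM and at 1.94 ± 0.46 FPKM at 24 h (adjusted p = 0.897), and Bhlhe22 was at 0.477 and 0.620 FPKM (adjusted p = 0.417).

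Of 20 mesodermal and blood class II genes, 10 were tested, and 1 was called higher at 18 h and 2 at 24 h, beside the same 1.33% and 2.07% of all genes tested. Hand1, a heart and trophoblast factor, went from 1.22 ± 0.39 to 11.6 ± 0.8 FPKM at 24 h (log2 fold-change 3.19 ± 0.21 (s.e.), adjusted p = 9.32e-05). Tal2 was higher at 24 h by 1.61 ± 0.39 on the log2 scale (adjusted p = 0.0316) from 0.112 FPKM. Tcf15, a factor of the paraxial mesoderm and the most abundant of this list at 28.3 ± 1.7 FPKM at 0 h, fell by 0.84 on the log2 scale at 18 h (adjusted p = 0.0193) and by 0.86 at 24 h (adjusted p = 0.0146), which is short of 2-fold. Twist1 was at 1.52 ± 0.22 FPKM and rose by 0.65 ± 0.18 on the log2 scale at 24 h (adjusted p = 0.0451).

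Among 14 cofactors of E proteins, all tested, 2 were called higher at 24 h and none lower (2.07% and 0.836% of all genes tested), and the list's median log2 fold-change was 0.10. Without the minimum fold 4 were higher and 4 lower at that time, beside 6.52% and 5.11% of all genes tested. Cbfa2t3, an ETO family corepressor that binds E proteins, went from 0.0572 ± 0.0221 to 0.676 ± 0.147 FPKM (log2 fold-change 2.29 ± 0.24 (s.e.), adjusted p = 0.00116). Its level at 0 h lay below the 0.1 FPKM filter, so it was tested only because of its later levels. The call of Cbfa2t3, and its part in the count of 2, therefore depend on that rise. Lmo1, which encodes a LIM-only bridging protein, showed 1.20 ± 0.30 (adjusted p = 0.035). The most abundant cofactors were lower by less than 2-fold, with a log2 fold-change at 24 h of −0.26 for the acetyltransferase gene Kat2a (adjusted p = 0.0208), −0.31 for the LIM domain binding gene Ldb1 (adjusted p = 0.0437) and −0.91 for Ssbp4, whose product stabilises LDB complexes (adjusted p = 0.00123).

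Of 8 genes for splicing and turnover of E proteins, 7 were tested and none was called at either time with the minimum fold. Hnrnph1, Hnrnpf and Ptbp1 encode RNA-binding proteins that act on the choice between the E12 and E47 exons. Hnrnph1 was higher at 24 h by 0.28 ± 0.08 on the log2 scale (adjusted p = 0.0444), while Hnrnpf showed −0.18 ± 0.08 (adjusted p = 0.163) and Ptbp1 −0.09 ± 0.06 (adjusted p = 0.391). With the replicate block Hnrnpf passed as lower at both times (adjusted p = 0.0221 at 18 h and 0.0149 at 24 h), and 1 of the 7 was higher and 4 were lower at 24 h, beside 13.6% and 12.5% of all genes tested. The values are summed over transcripts of a gene, so the use of the E12 and E47 exons was not measured.

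The HMG-box genes that share older symbols with the members did not pass the test at either time. Tcf7l1 was at 16.4 ± 1.4 FPKM at 0 h and 15.8 ± 1.0 FPKM at 24 h (log2 fold-change −0.05 ± 0.08 (s.e.), adjusted p = 0.746), and Tcf7l2 was at 1.19 and 1.25 FPKM (0.07 ± 0.15, adjusted p = 0.809). Tcf7 was at 34.0 and 33.0 FPKM (adjusted p = 0.726). None of the 4 genes in this list was called with the minimum fold. At the adjusted p alone Lef1 passed at both times (4.27% of all genes tested were higher at 18 h and 6.52% at 24 h on this rule), higher by 0.78 at 18 h (adjusted p = 0.00331) and by 0.43 at 24 h (adjusted p = 0.0276) on the log2 scale.

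The genes whose profile over the 9 libraries was nearest to that of each member were found by the root mean square difference of log2 levels, centred on the 0 h mean, among 11893 genes with a mean of at least 1 FPKM. Tcf12 was nearest to Rb1, Fhl3 and Cep170, at differences of 0.05, 0.07 and 0.08. Tcf4 was nearest to Ddah1, Selt and Cdk13, at 0.05, 0.05 and 0.06. Tcf3 was nearest to Fgfr2, Lfng and Plcxd1, at 0.10, 0.14 and 0.15. The Tcf3 profile includes transgene reads, so its likeness to other genes is not that of endogenous Tcf3. Between members, Tcf12 and Tcf4 differed by 0.16, with 1.86% of the genes compared nearer to Tcf12 than Tcf4 was and 5.50% nearer to Tcf4 than Tcf12 was. Tcf3 differed from Tcf12 by 0.78 and from Tcf4 by 0.89, with 4.73% and 8.80% of genes nearer to Tcf3, whose median difference from all genes compared was 1.19. From the other side, 90.6% of genes were nearer to Tcf12 than Tcf3 was, and 95.8% were nearer to Tcf4. This measure is a description of likeness over libraries that share time points and replicate numbers.

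**Figure D4:**
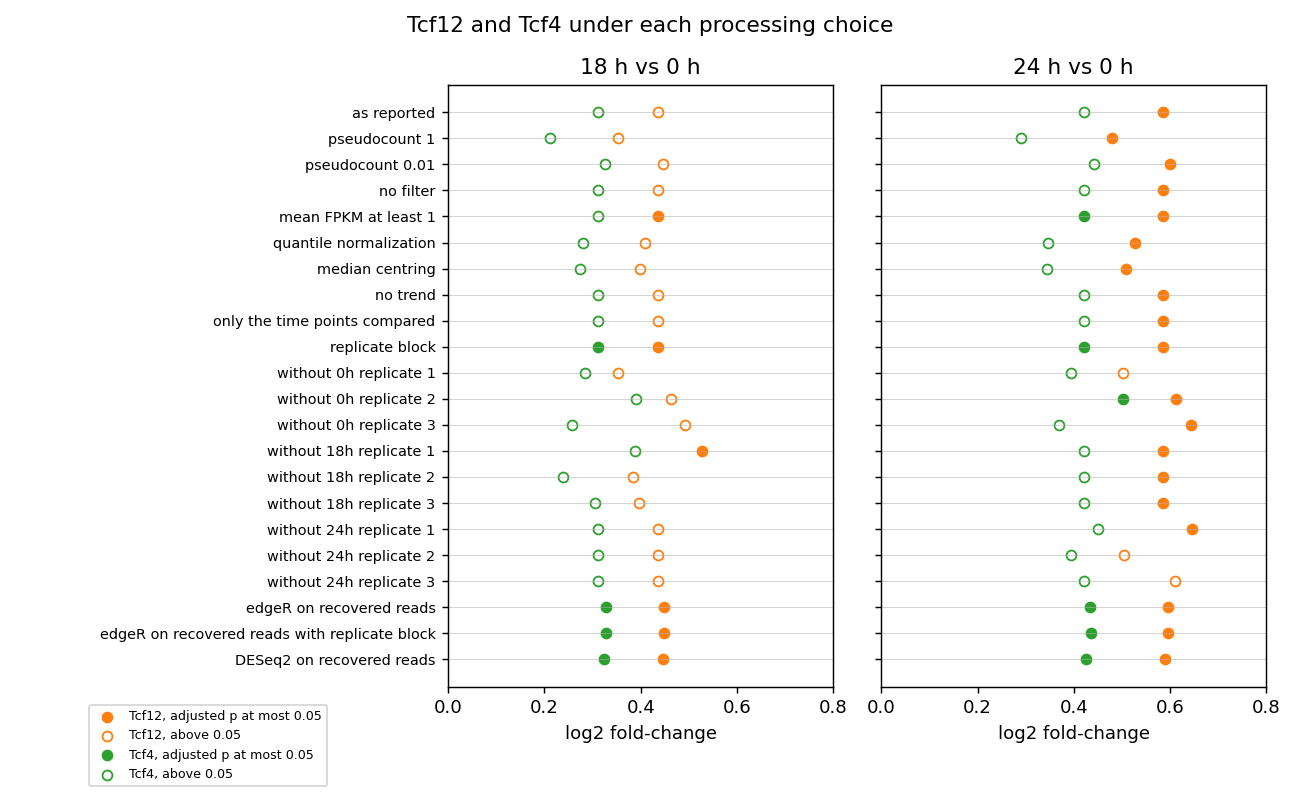
Log2 fold-change of Tcf12 and Tcf4 at 18 h and 24 h against 0 h as reported and under 21 processing alternatives, filled where the adjusted p was at most 0.05. All values lie above 0, from 0.21 to 0.65. Tcf12 at 24 h passed under 18 of the 21 alternatives, Tcf12 at 18 h under 6, and Tcf4 under 4 at 18 h and 6 at 24 h. The number of all genes that passed also varied between the alternatives.

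The direction of Tcf12 and Tcf4 was the same under every alternative run, and what varied was the side of the threshold, as the plot of processing choices shows. The tests on recovered read numbers placed both genes past it at both times. With edgeR's quasi-likelihood test on those reads the adjusted p at 18 h was 0.0185 for Tcf12 and 0.0479 for Tcf4. At 24 h it was 0.00314 and 0.0108. In that test 1110 of 19210 genes were higher at 18 h and 1525 at 24 h at the adjusted p alone. With limma and a stricter filter of a mean of at least 1 FPKM, Tcf12 at 18 h had an adjusted p of 0.0446 and Tcf4 at 24 h one of 0.0497. With that filter 735 of 11893 genes were higher at 18 h and 1046 at 24 h on the same rule.

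Since E proteins bind E-boxes, the promoter windows of the members were searched for the E-box letters. RefSeq promoters on GRCm38.p6 matched Tcf12 (3 windows) and Tcf3 (1 window), and the 250 bases before the start are shown for Tcf3 and for the furthest upstream Tcf12 start, with every CANNTG in capitals.
Tcf12, chr9:72111820-72112069, minus strand: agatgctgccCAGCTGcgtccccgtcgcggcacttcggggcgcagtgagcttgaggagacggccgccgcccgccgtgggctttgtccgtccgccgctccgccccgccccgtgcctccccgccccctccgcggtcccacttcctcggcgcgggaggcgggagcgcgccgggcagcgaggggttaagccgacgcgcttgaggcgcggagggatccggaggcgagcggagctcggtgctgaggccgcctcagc
Tcf3, chr10:80433636-80433885, minus strand: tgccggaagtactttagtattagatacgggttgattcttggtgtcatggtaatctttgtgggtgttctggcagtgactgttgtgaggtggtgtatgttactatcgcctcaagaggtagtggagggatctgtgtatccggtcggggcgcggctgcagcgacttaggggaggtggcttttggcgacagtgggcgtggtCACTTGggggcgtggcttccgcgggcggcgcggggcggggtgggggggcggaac
Each window shown holds 1 such match, beginning 240 bases before the start in Tcf12, where it reads CAGCTG, and 54 bases before it in Tcf3, where it reads CACTTG. Of the Tcf12 windows not shown, the one at chr9:72111202-72111451 holds a match 149 bases before its start and the one at chr9:71896097-71896346 holds none. A search for CANNTG covers both strands, since its reverse complement has the same form, and 66.2% of all 32851 windows of this length hold it. The sequence CAGCTG equals its own reverse complement and is in 13.0% of windows. The other form searched, CAGGTG on either strand, is in 17.2% of windows and in none of the 4 windows of Tcf12 and Tcf3. These forms overlap, as CAGCTG and CAGGTG are cases of the general motif. Such matches are a description of letters in these windows, and binding was not measured.

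Libraries held between 22028363 and 26471569 reads on genes. The cells had the markers of ESCs at 0 h, with all 8 listed genes above 1 FPKM, among them Pou5f1 at 371 and Sox2 at 88.9 FPKM, and none of the 8 was called at either time with the minimum fold. Without it, Nanog was higher at 24 h by 0.86 on the log2 scale (adjusted p = 0.00735) and Pou5f1 fell by 0.58 to 248 FPKM (adjusted p = 0.0220), and with the block 2 of the 8 were higher and 3 lower at 24 h, beside 13.6% and 12.5% of all genes tested. Summed markers of fibroblasts, which can accompany ESCs as feeders, were between 6.99 and 14.6 FPKM at 0 h and between 6.08 and 10.7 FPKM at 24 h, and those of primitive endoderm between 4.29 and 5.24 and between 5.10 and 6.08 FPKM, with none called in either list. At the adjusted p alone the fibroblast marker Thy1 was lower at 24 h by 0.74 on the log2 scale (adjusted p = 0.0494), beside 5.11% of all genes tested. With the block 2 of the 5 fibroblast genes tested were lower and 0 higher at 24 h, beside 12.5% and 13.6%. The B-lymphoid list summed to between 1.45 and 2.42 FPKM at 0 h and between 0.656 and 1.38 FPKM at 24 h, with Ms4a1 at 0 in every library, and of its 2 genes tested Cd79b was called lower at 18 h (log2 fold-change −1.30, adjusted p = 0.0299, beside 0.724% of all genes tested). Neuron markers summed to between 66.5 and 80.6 FPKM at 0 h and between 80.8 and 106 FPKM at 24 h, with none of 5 tested called. The higher sum was that of Tubb3, which went from 41.5 to 63.1 FPKM (adjusted p = 0.0638, and 0.000739 with the block), while Stmn2 went from 27.9 to 23.2 FPKM (adjusted p = 0.0596, and 0.00527 with the block) and the list had a median log2 fold-change of −0.30 at 18 h and −0.12 at 24 h. At 18 h Stmn2 was lower by 0.38 on the log2 scale and passed at the adjusted p alone (adjusted p = 0.0231), beside 3.72% of all genes tested. Trophoblast markers summed to between 8.18 and 9.99 FPKM at 0 h and between 24.3 and 30.5 FPKM at 24 h. Of 5 tested, 2, Hand1 and Cdx2, were called higher at 24 h (2.07% of all genes tested). Tfap2c was higher at 24 h by 0.998 on the log2 scale, just short of 2-fold. It passed at the adjusted p alone (adjusted p = 0.0365, and 0.000649 with the block), beside 6.52% of all genes tested. Krt7 was higher by 0.394 and did not pass (adjusted p = 0.254). Eomes was at 1.07 FPKM at 0 h and 0.813 FPKM at 24 h, and Elf5 at 0.0192 and 0.00639 FPKM. The part of such changes in the values of Tcf12 and Tcf4 was not tested. In these bulk samples a change in the share of cells that express a gene and a change in its level per cell cannot be told apart.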

How the data were processed

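RNA was sequenced from 9 libraries, 3 replicates each at 0, 18 and 24 h, grouped by their labels. Per the labels and the study's methods, the authors made strand-specific polyadenylated RNA libraries, trimmed reads with cutadapt 1.9, aligned them with STAR to GRCm38 and tested them with edgeR 3.16.5. The authors deposited FPKM values for 47729 genes. Another file that they deposited gives a signal for 19210 genes in each library, namely CPM with a further scaling factor for each library, from which whole reads were recovered (100% of values within 0.01 of a whole number). In that file the authors' mean CPM, log2 fold-changes, p-values and false discovery rates were not used. Sequences come from GENCODE M21 and RefSeq.

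limma 3.58.1 in R 4.3.3, with an intensity trend, was fitted to log2(FPKM+0.1) of all 9 libraries for the 17951 genes with a mean of at least 0.1 FPKM, with Benjamini–Hochberg adjustment over all of them. Adjusted p values come from limma unless another tool is named, and a fold-change on this scale understates that of low genes. Lists count genes past both an adjusted p of 0.05 and 2-fold, and members pass at the adjusted p alone. Ratios were compared with exact permutation tests, two-sided. Alternatives included edgeR 4.0.16 and DESeq2 1.42.0 on the recovered reads. The scripts were tested on simulated data. Tables and plots used Python 3.11.15, pandas 2.3.3 and matplotlib 3.10.9.

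Deviations from the time point means correlated between all 9 pairs of libraries with the same replicate number (r from 0.211 to 0.548), so the numbers, which the labels give, were taken to pair the samples. The main limma fit and the permutation tests do not use this pairing, and results with it are named as blocked or paired. Replicates differed by more than sampling noise (chi-square over its degrees of freedom from 5.39 to 16.3). The study describes the replicates as biological, and p values measure the spread between these samples. The members and gene lists were chosen with earlier results of these data known. Named list genes are up to 5 called ones with the largest change at 24 h and the 3 with the highest level at 0 h, and others were chosen after their values were seen.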

Additional observations from a re-analysis of the deposited data

How the results depend on the processing

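No value of a member changed direction under any alternative, and Tcf3 passed at both times against 0 h under all 21. For Tcf12 at 18 h the log2 fold-change was 0.44 with adjusted p under 0.05 for a mean of at least 1 FPKM, 0.44 with the replicate block, 0.45 in edgeR, 0.45 in edgeR with the block and 0.45 in DESeq2. Leaving out 1 library gave 0.35 to 0.53 for Tcf12 at 18 h, passing only without 18 h replicate 1, and 0.50 to 0.65 at 24 h, not passing without 0 h replicate 1, 24 h replicate 2 or 24 h replicate 3. For Tcf4 at 18 h the log2 fold-change was 0.31 with the replicate block, 0.33 in edgeR, 0.33 in edgeR with the block and 0.32 in DESeq2, and at 24 h it was 0.42 for a mean of at least 1 FPKM, 0.42 with the block, 0.43 in edgeR, 0.44 in edgeR with the block and 0.43 in DESeq2, all passing. Leaving out 1 library gave 0.24 to 0.39 for Tcf4 at 18 h, never passing, and 0.37 to 0.50 at 24 h, passing only without 0 h replicate 2. Between 18 h and 24 h, leaving out 1 library gave −0.16 to −0.05 for Tcf3, 0.06 to 0.21 for Tcf12 and 0.03 to 0.18 for Tcf4, never passing. The replicate block changed no other call of a member. The cause of these differences between alternatives was not tested.

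Genes called higher at 18 h numbered 239, and 383 in edgeR, 505 in edgeR with the block, 125 for a mean of at least 1 FPKM, 66 with a pseudocount of 1 and 766 with no minimum fold. Genes called lower at 18 h numbered 130, and 200, 311, 85, 54 and 667 under these alternatives, 75 with only the time points compared and 199 with the replicate block. Genes called higher at 24 h numbered 371, and 678 in edgeR with the block, 166 for a mean of at least 1 FPKM, 84 with a pseudocount of 1 and 1171 with no minimum fold. Genes called lower at 24 h numbered 150, and 241 in edgeR, 340 in edgeR with the block, 99 for a mean of at least 1 FPKM, 67 with a pseudocount of 1 and 917 with no minimum fold. Between 18 h and 24 h 3 genes were called higher, and 0 in edgeR, 0 in DESeq2, 7 in edgeR with the block, 0 for a mean of at least 1 FPKM, 1 with a pseudocount of 0.01 and 0 with one of 1, and 1 was called lower, and 0 in edgeR, 2 in DESeq2, 2 in edgeR with the block, 0 for a mean of at least 1 FPKM, 2 with no filter, 2 with no trend, and 0 with either pseudocount. At an unadjusted p under 0.05 this comparison had 1004 genes in limma, 983 in edgeR and 789 in DESeq2. Blocking on the replicate number raised these counts to 2203 for limma and 2550 for edgeR. At the adjusted p alone, the blocked edgeR fit had 157 genes higher and 56 lower at 24 h than at 18 h. The blocked limma fit had 6 higher and 2 lower. Leaving out 1 library gave 158 to 247 higher and 66 to 181 lower at 18 h, 238 to 355 higher and 79 to 189 lower at 24 h, and 0 to 6 higher and 0 to 5 lower between 18 h and 24 h. With no minimum fold these ranges were 305 to 819 higher and 199 to 730 lower at 18 h. At 24 h they were 468 to 1037 higher and 313 to 840 lower.

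The share of Tcf4 and Tcf12 fell by 15.6 percentage points at 18 h and fell by 12.5 at 24 h in scaled CPM, and it fell by 9.34 and fell by 7.62 per length of the longest coding transcript. The ratio of Id genes to all E protein genes was higher by 1.06 and 1.18 in scaled CPM, and by 3.003 at 24 h per coding length. The ratio of Id genes to Tcf4 and Tcf12 was higher by 5.81 and 5.41 in scaled CPM, and by 31.5 and 29.2 per coding length. The size of these differences depends on the scale. In scaled CPM the mean ratio at 0 h was 0.465 to all E protein genes and 1.24 to Tcf4 and Tcf12. The coding length was added after the data were seen. As differences within replicate numbers, the replicate block for these ratios, the share fell by 5.49 and fell by 4.50 percentage points, with an exact paired p of 0.25, the smallest it allows. The exact paired p was also 0.25 at both times for each of the Id ratios. For the ratio of Tcf12 to Tcf4 it was 0.5 at both times.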
